A study of Mus musculus with 96 samples.

Results

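The genes described here were the mitochondrial solute carriers of the SLC25 family in brown fat from between the shoulder blades (interscapular, iBAT), which makes heat, and in white fat of the groin (inguinal, iWAT), which lies under the skin. Members were all gene symbols of the form Slc25a followed by a number, other than Slc25a1 and Slc25a20, together with Ucp2 and Ucp3. This gave 47 members among 29072 gene symbols, each read from its transcript with the highest mean over the 96 libraries. Ucp1, a member of the same family and the gene that the knockout label names, was given only as a reference.

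Male C57BL/6J mice were wild-type or labelled Ucp1-KO, a knockout of the gene for uncoupling protein 1; the labels do not describe the allele. For 4 weeks, mice of either genotype lived at 20 °C on control diet, at 30 °C (thermoneutral for mice) on control diet, or at 30 °C on high fat diet. Fat supplied 13% of the energy in the control and 48% in the high fat diet. The labels give no ages. The 6 groups of 8 animals gave both depots, hence 12 groups of 8 libraries, and the labels do not pair the depots of an animal. Levels are reads per kilobase of transcript, scaled to library depth (RPKM), a per-length unit, so levels of different genes can be set side by side.

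Carriers of this family sit in the inner mitochondrial membrane, with few exceptions in peroxisomes or the outer membrane, and exchange nucleotides, phosphate, carboxylates, amino acids, cofactors and iron between the cytosol and the organelle. They are encoded in the nucleus and reach the inner membrane through the TIM22 import route. Brown fat is rich in mitochondria, and its thermogenic carrier UCP1 belongs to this family; the remaining members supply the substrates and cofactors that oxidation and ATP synthesis use.

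Libraries held 8.9 to 19.2 M reads, so that 1 read on a transcript of 1 kb stood for 0.052 to 0.112 RPKM. Ucp1 RNA had median levels of 4016, 8200 and 6413 RPKM in wild-type iBAT (20 °C, 30 °C, high fat diet), against 993, 679 and 815 RPKM in Ucp1-KO iBAT. In iWAT at 20 °C the library medians were 97.1 RPKM in wild-type and 266 RPKM in libraries labelled Ucp1-KO, so Ucp1 RNA was not absent from knockout tissue. The site of the disruption in the gene is unstated, and this transcript does not check the genotype in iWAT. Summed brown adipocyte markers (8 genes, Ucp1 included) ran from 10055 to 12551 RPKM in wild-type iBAT and from 129 to 322 RPKM in wild-type iWAT at 30 °C, in the order of the labels. RNA of another tissue was high in 19 libraries, of which 17 had summed skeletal muscle markers of at least 2000 RPKM and 2 had summed hepatocyte markers of at least 1000 RPKM.

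The 47 members covered a wide range of levels. Over the 96 libraries the highest mean was that of Slc25a39, a carrier needed for glutathione in mitochondria, at 209.7 RPKM, followed by Slc25a4 (the adenine nucleotide translocase ANT1) at 205.9 RPKM, Slc25a3 (the phosphate carrier) at 181 RPKM and Slc25a51 (the NAD carrier) at 162.5 RPKM. There were 7 members that did not reach 0.5 RPKM in 8 libraries of any fit and were not tested. These were Slc25a2, Slc25a18, Slc25a21, Slc25a31, Slc25a41, Slc25a43 and Slc25a54. Slc25a13 passed this filter in iWAT and over both depots together but not in iBAT, which left 39 members tested in iBAT and 40 in iWAT. All 40 were past the threshold (limma adjusted p under 0.05) in at least 1 of the 14 comparisons within a depot. How many of all genes were so was not counted, so whether this is particular to the carriers was not tested. Temperature in Ucp1-KO iBAT alone called 13.9% of all genes higher and 59.5% lower. The share of all genes called is given with each comparison.

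The 12 group means show how the classes sat in each depot. Among the cofactor carriers, group means were 202 to 286 RPKM in iBAT and 41.3 to 159.7 RPKM in iWAT for Slc25a51. The coenzyme A carrier Slc25a42 spanned 59.9 to 170.3 RPKM in iBAT and 10.0 to 41.0 RPKM in iWAT, and the peroxisomal Slc25a17 spanned 63.8 to 134 RPKM in iBAT and 22.9 to 62.4 RPKM in iWAT. Slc25a16, Slc25a32 and Slc25a36 had ranges that overlapped between depots, with means of 12.0 to 20.7, 10.2 to 21.4 and 17.6 to 24.3 RPKM in iBAT and 13.8 to 19.9, 8.51 to 17.5 and 23.1 to 26.5 RPKM in iWAT. Both carboxylate carriers tested had different depot patterns. Slc25a11, the oxoglutarate carrier of the malate-aspartate shuttle, spanned 54.2 to 104 RPKM in iBAT and 39.7 to 65.1 RPKM in iWAT, and Slc25a10 spanned 8.32 to 31.0 RPKM in iBAT and 79.2 to 177 RPKM in iWAT. In the glutathione and S-adenosylmethionine class, Slc25a39 spanned 241 to 442 RPKM in iBAT and 85.1 to 223 RPKM in iWAT, its homologue Slc25a40 1.41 to 2.03 RPKM in iBAT and 2.25 to 3.59 RPKM in iWAT and the S-adenosylmethionine carrier Slc25a26 8.89 to 10.9 RPKM in iBAT and 5.07 to 7.72 RPKM in iWAT.

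Most amino acid carriers were low. Slc25a22, a glutamate carrier, had the highest mean of these in either depot, at 45.0 to 76.9 RPKM in iBAT and 29.1 to 47.0 RPKM in iWAT. The glycine carrier Slc25a38 spanned 4.46 to 8.34 RPKM in iBAT and 5.58 to 9.34 RPKM in iWAT, the ornithine carrier Slc25a15 3.98 to 6.93 RPKM in iBAT and 3.50 to 6.05 RPKM in iWAT and the aspartate/glutamate carrier Slc25a12 3.25 to 11.0 RPKM in iBAT and 3.93 to 9.88 RPKM in iWAT. Slc25a29 (basic amino acids) and Slc25a13 (the aspartate/glutamate carrier of liver) did not exceed 3.39 RPKM in any group mean. Of the ATP-Mg/phosphate carriers Slc25a23 spanned 25.0 to 54.6 RPKM in iBAT and 35.4 to 47.7 RPKM in iWAT, Slc25a24 1.61 to 10.7 RPKM in iBAT and 4.31 to 10.9 RPKM in iWAT and Slc25a25 3.50 to 29.9 RPKM in iBAT and 9.01 to 26.1 RPKM in iWAT. In the uncoupling branch Ucp2 and Ucp3 led, at 28.9 to 174 RPKM in iBAT and 105 to 201 RPKM in iWAT for Ucp2 and 26.3 to 84.8 RPKM in iBAT and 16.3 to 34.0 RPKM in iWAT for Ucp3, while Slc25a30 spanned 3.44 to 7.42 RPKM in iBAT and 7.88 to 14.1 RPKM in iWAT. Slc25a14 and Slc25a27, known from brain, had means of 0.777 to 1.56 and 0.767 to 1.24 RPKM in iBAT and 1.16 to 2.10 and 1.41 to 2.66 RPKM in iWAT.

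Slc25a28, mitoferrin 2, spanned 15.3 to 31.4 RPKM in iBAT and 18.9 to 24.6 RPKM in iWAT, and Slc25a46, an outer membrane member tied to mitochondrial shape, 47.6 to 62.6 RPKM in iBAT and 29.0 to 42.9 RPKM in iWAT. Among members placed in no substrate class here, Slc25a34 and Slc25a35 were brown-rich, at 8.98 to 37.0 RPKM in iBAT and 0.349 to 6.07 RPKM in iWAT and at 16.3 to 56.4 RPKM in iBAT and 10.5 to 31.0 RPKM in iWAT. Slc25a48 had 0.961 to 10.5 RPKM in iBAT and 0.363 to 4.25 RPKM in iWAT, whereas Slc25a45 had 1.56 to 6.26 RPKM in iBAT and 4.92 to 11.4 RPKM in iWAT and Slc25a53 0.213 to 0.826 RPKM in iBAT and 1.76 to 4.71 RPKM in iWAT. Slc25a47 had 1.22 to 2.32 RPKM in iBAT and 1.58 to 17.6 RPKM in iWAT. The 7 untested members reached a group mean of at most 0.515 RPKM, in Slc25a43.

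In the order 20 °C, 30 °C and high fat diet, the translocase Slc25a4 had group medians of 278, 273, 178 RPKM in wild-type and 251, 225, 190.2 RPKM in Ucp1-KO iBAT, and 137, 125, 127 and 154, 151, 128 RPKM in iWAT. Slc25a5 had group medians of 88.5, 88.9, 62.2 RPKM in wild-type and 111, 90.5, 78.5 RPKM in Ucp1-KO iBAT, and 58.5, 47.0, 48.3 and 65.5, 58.1, 49.3 RPKM in iWAT. Slc25a4 was the more abundant of these translocases in each group. Slc25a3 had group medians of 193, 137, 167 RPKM in wild-type and 197, 178, 228 RPKM in Ucp1-KO iBAT, and 180.0, 168, 167 and 173, 184, 177 RPKM in iWAT. Slc25a33 had group medians of 32.6, 31.9, 26.3 RPKM in wild-type and 37.2, 21.8, 21.7 RPKM in Ucp1-KO iBAT, and 12.4, 7.02, 5.97 and 18.5, 10.3, 5.83 RPKM in iWAT. Slc25a33 medians were higher in iBAT than in iWAT in every condition. Slc25a37 had group medians of 3.29, 4.11, 5.19 RPKM in wild-type and 4.32, 7.12, 7.27 RPKM in Ucp1-KO iBAT, and 14.1, 17.9, 14.9 and 8.12, 14.7, 17.8 RPKM in iWAT. Slc25a44 had group medians of 47.6, 54.9, 46.5 RPKM in wild-type and 52.0, 46.0, 40.6 RPKM in Ucp1-KO iBAT, and 34.6, 29.0, 27.4 and 45.5, 35.9, 29.4 RPKM in iWAT. Slc25a37 medians were higher in iWAT than in iBAT in each condition and Slc25a44 medians lower.

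**Figure D1:**
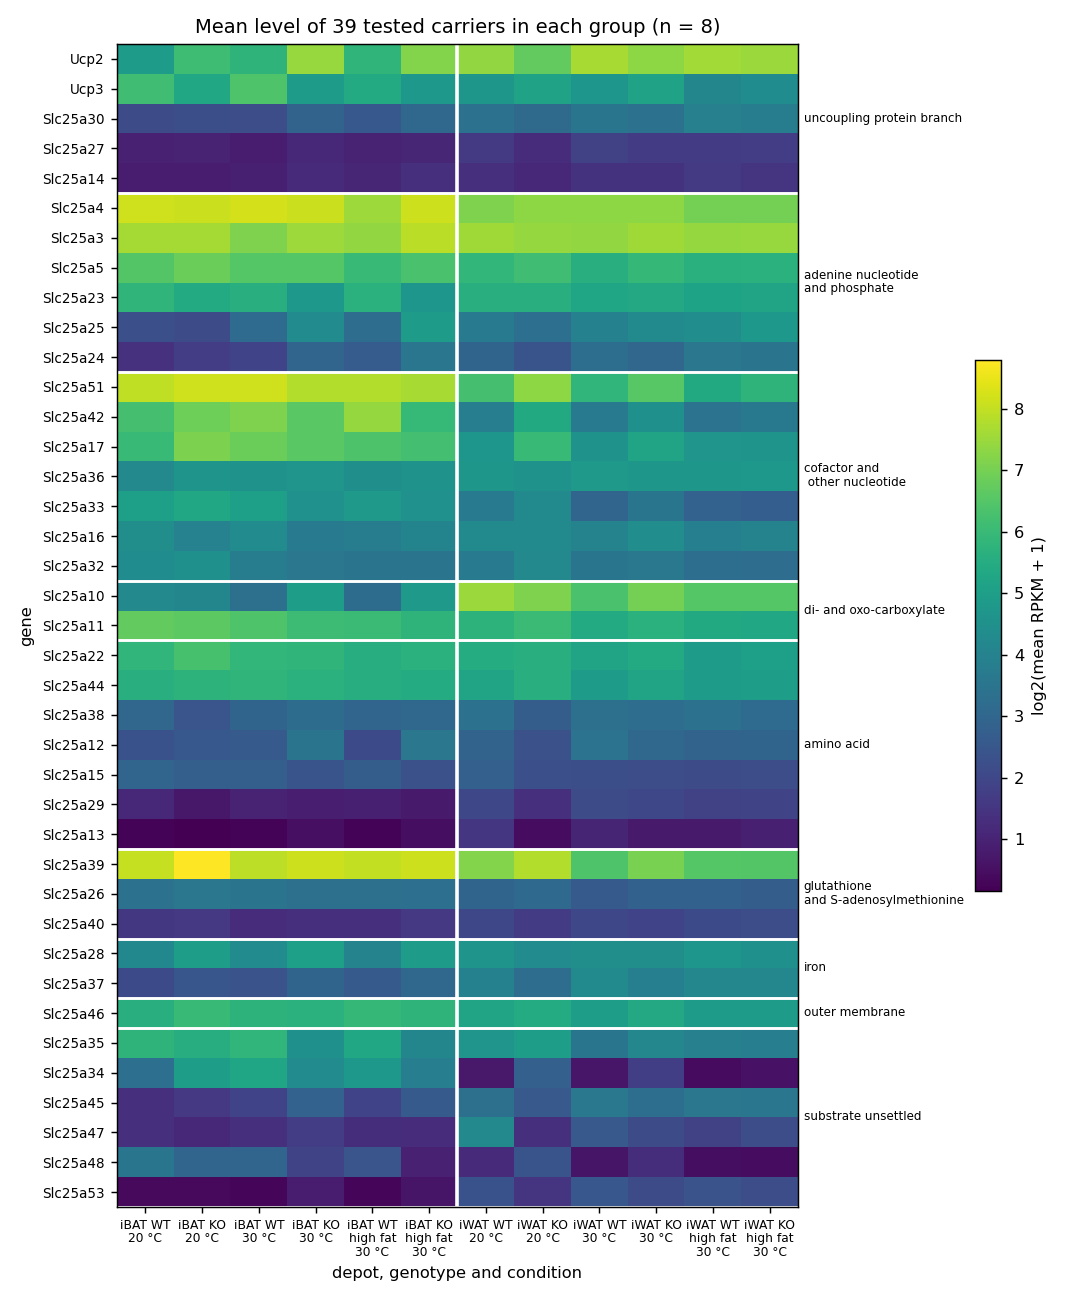
Mean level of 39 tested carriers (rows, grouped by known substrate) in the 12 groups (columns, n = 8 libraries each), on a log2(mean RPKM + 1) colour scale. Slc25a39 in Ucp1-KO iBAT at 20 °C (mean 441.6 RPKM) is the brightest cell, and Slc25a34, Slc25a42 and Slc25a10 change colour between the left (iBAT) and right (iWAT) columns.

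The depots differed in most carriers. In wild-type mice at 30 °C, 21 of 40 tested members were higher in iBAT and 18 lower (limma on log2(RPKM + 1), adjusted over all genes), where 19.5% and 61.8% of all genes tested were higher and lower. With libraries scaled to a common median ratio the members split into 24 higher and 13 lower. Of all genes 12643 were then called, 44.5% of them higher. The median of all genes lay at -0.43 (log2) without this scaling. Shares of all genes tested are from the unscaled fit, here and below. The member median was 0.29 (log2). In bulk tissue fewer cells of a type and less RNA per cell cannot be told apart, and the depots hold different cell mixtures. For iBAT against iWAT of wild-type mice at 30 °C, the log2 differences past the threshold included higher values for Slc25a48 (2.33) and Slc25a35 (2.31) and lower values for Slc25a24 (-1.38).

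Slc25a34, a carrier whose substrate is not settled, had lowest, median and highest levels of 32.3, 36.7 and 42.2 RPKM in wild-type iBAT at 30 °C and of 0.329, 0.574 and 0.974 RPKM in iWAT. The libraries did not overlap and the difference was 4.58 ± 0.20, adjusted p = 1.41e-36 (log2 ± SE, limma). The pseudocount of 1 compresses this value; with 0.1 it was 5.80. Slc25a42, which carries coenzyme A, stood at 127, 135 and 156 RPKM in iBAT and at 9.28, 12.0 and 15.4 RPKM in iWAT (3.44 ± 0.13, adjusted p = 2.80e-41, limma). Cofactor and nucleotide carriers were higher in iBAT in 7 of 8 tested members, with a list median of 2.14 (log2). They included Slc25a51 at 2.32, Slc25a17 (a peroxisomal carrier of coenzyme A and related cofactors) at 2.28 and Slc25a33 (pyrimidine nucleotides) at 2.07, all log2 differences. Slc25a36, also a pyrimidine nucleotide carrier, had -0.19 (log2, lower in iBAT), which median-ratio scaling turned to a call in the other direction (0.31, adjusted p = 2.11e-09, limma).

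The carriers richest in iWAT were of other kinds. Slc25a10, the dicarboxylate carrier, exchanges malate and succinate for phosphate. Its levels were 6.08, 8.34 and 12.3 RPKM in wild-type iBAT and 51.0, 80.7 and 102 RPKM in wild-type iWAT at 30 °C, with no overlap (-3.00 ± 0.21, adjusted p = 2.02e-23, limma). Ucp2, a homologue of UCP1 expressed in many tissues and immune cells, had 44.8, 52.9 and 63.4 RPKM in iBAT and 179.9, 203 and 229 RPKM in iWAT, again without overlap (-1.90 ± 0.14, adjusted p = 1.36e-22, limma). Summed macrophage markers ran from 185 to 311 RPKM in iBAT and from 1107 to 1912 RPKM in iWAT, and their part in the Ucp2 difference was not tested. Slc25a37 (mitoferrin 1, an iron importer) was lower in iBAT with a log2 difference of -1.92, as were Slc25a53 (-2.17) and Slc25a45 (-1.74). Among the major ATP synthesis carriers, Slc25a4 and Slc25a5 (ANT2) were higher in iBAT by 0.97 and 0.92 (log2). Slc25a3 had a small log2 difference of -0.28 that turned to 0.23 under median-ratio scaling. Ucp3, a UCP1 homologue of muscle and brown fat, was higher in iBAT by 1.80 (log2), and Slc25a44, the carrier of branched-chain amino acids in brown fat, by 0.90.

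The other groups are given for comparison. In wild-type mice at 20 °C, 19 members were higher and 18 lower in iBAT (limma), against 15.8% and 64.4% of all genes; with median-ratio scaling there were 23 and 12. In wild-type mice on high fat diet, 20 members were higher and 17 lower in iBAT (limma), against 16.7% and 61.9% of all genes; with median-ratio scaling there were 23 and 13. In Ucp1-KO mice at 20 °C, 19 members were higher and 13 lower in iBAT (limma), against 20.2% and 42.7% of all genes; with median-ratio scaling there were 21 and 10. In Ucp1-KO mice at 30 °C, 17 members were higher and 11 lower in iBAT (limma), against 26.3% and 35.8% of all genes; with median-ratio scaling there were 17 and 11. In Ucp1-KO mice on high fat diet, 18 members were higher and 12 lower in iBAT (limma), against 24.5% and 45.0% of all genes. With median-ratio scaling there were 20 and 9. That scaling called 12401 and 12101 of all genes in wild-type mice (20 °C, high fat diet), 45.8% and 45.2% of them higher. In Ucp1-KO mice it called 10465, 10179 and 10976 (20 °C, 30 °C, high fat diet), 48.3%, 46.0% and 45.6% of them higher. Slc25a34 differed between depots by 2.24, 2.57 and 3.27 (log2) in Ucp1-KO mice (20 °C, 30 °C, high fat diet), and by 2.35, 4.58 and 4.29 in wild-type mice. For Ucp2 these log2 differences were -0.63, 0.08 and -0.31 in Ucp1-KO mice and -2.50, -1.90 and -1.77 in wild-type mice; the value for Ucp1-KO mice at 30 °C did not pass (adjusted p = 0.642, limma), and the value for Ucp1-KO mice on high fat diet did not pass with median-ratio scaling (-0.16, adjusted p = 0.243, limma) or without the 19 libraries high in other RNA (-0.26, adjusted p = 0.147, limma). The medians of all genes were -0.43 and -0.40 (log2) in wild-type mice (20 °C, high fat diet) and -0.15, -0.07 and -0.16 in Ucp1-KO mice (20 °C, 30 °C, high fat diet). Whether the depot difference itself depended on genotype was not tested. For iBAT against iWAT of wild-type mice at 20 °C, the log2 differences past the threshold included higher values for Slc25a42 (2.40), Slc25a48 (2.28) and Slc25a51 (1.74) and lower values for Slc25a10 (-3.25), Slc25a45 (-1.98), Slc25a37 (-1.86) and Slc25a24 (-1.55). For iBAT against iWAT of wild-type mice on high fat diet, the log2 differences past the threshold included higher values for Slc25a42 (3.95), Slc25a51 (2.43) and Slc25a48 (1.94) and lower values for Slc25a10 (-3.37), Slc25a45 (-1.64), Slc25a37 (-1.52) and Slc25a30 (-1.38). For iBAT against iWAT of Ucp1-KO mice at 20 °C, the log2 differences past the threshold included higher values for Slc25a42 (1.51), Slc25a17 (1.11), Slc25a33 (1.01) and Slc25a39 (1.00) and lower values for Slc25a10 (-3.11), Slc25a25 (-1.15), Slc25a45 (-0.96), Slc25a30 (-0.89) and Slc25a37 (-0.74). For iBAT against iWAT of Ucp1-KO mice at 30 °C, the log2 differences past the threshold included higher values for Slc25a42 (2.07), Slc25a17 (1.37), Slc25a51 (1.24) and Slc25a39 (1.05) and lower values for Slc25a10 (-1.97), Slc25a37 (-0.93), Slc25a16 (-0.68), Slc25a23 (-0.63) and Slc25a30 (-0.48). For iBAT against iWAT of Ucp1-KO mice on high fat diet, the log2 differences past the threshold included higher values for Slc25a42 (2.26), Slc25a51 (1.89), Slc25a33 (1.80) and Slc25a39 (1.63) and lower values for Slc25a10 (-1.74), Slc25a37 (-1.05), Slc25a45 (-0.93), Slc25a30 (-0.72) and Slc25a23 (-0.54).

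The effect of temperature on iBAT carriers was compared within each genotype, and the difference between the genotypes was tested as an interaction. In wild-type iBAT, 7 of 39 members were higher and 10 lower at 20 °C than at 30 °C (limma), against 11.6% and 33.0% of all genes. In Ucp1-KO iBAT 19 were higher and 10 lower at 20 °C, against 13.9% and 59.5% of all genes. The interaction of genotype and temperature, which tests the difference between these effects, was past the threshold in 27 members: 18 were positive (a larger rise or smaller fall at 20 °C in knockout tissue) and 9 negative, against 11.9% and 40.5% of all genes. Under median-ratio scaling the splits were 10 and 8 in wild-type, 25 and 8 in Ucp1-KO and 20 and 7 for the interaction, where the medians of all genes had been -0.12, -0.34 and -0.24 (log2). That scaling called 6151, 9668 and 7087 of all genes, of which 50.0%, 46.7% and 46.8% were higher (positive for the interaction). For wild-type iBAT at 20 °C against 30 °C, the log2 differences past the threshold included higher values for Slc25a10 (0.90), Slc25a48 (0.52) and Slc25a11 (0.28) and lower values for Slc25a17 (-0.86). For Ucp1-KO iBAT at 20 °C against 30 °C, the log2 differences past the threshold included lower values for Slc25a24 (-1.28), Slc25a45 (-1.22) and Slc25a10 (-0.93). For the iBAT interaction with temperature, the log2 differences past the threshold included positive values for Slc25a35 (1.15) and negative values for Slc25a38 (-0.85), Slc25a24 (-0.77) and Slc25a30 (-0.62).

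The largest interaction was in Slc25a34. Its levels were 2.09, 9.05 and 15.1 RPKM at 20 °C and 32.3, 36.7 and 42.2 RPKM at 30 °C in wild-type iBAT. In Ucp1-KO iBAT they were 23.3, 29.6 and 36.6 RPKM at 20 °C and 10.9, 19.3 and 24.7 RPKM at 30 °C. Wild-type libraries at 20 °C all lay below those at 30 °C, while knockout libraries were higher at 20 °C by their medians, with overlap. The log2 difference, 20 °C minus 30 °C, was -2.17 ± 0.22, adjusted p = 6.01e-11 in wild-type and 0.67 ± 0.22, adjusted p = 0.00568 in Ucp1-KO iBAT, and the interaction was 2.84 ± 0.31, adjusted p = 6.43e-10 (limma).

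Slc25a42 and Slc25a17 had the same signs. Slc25a42 had 67.5, 72.2 and 94.4 RPKM at 20 °C against 127, 135 and 156 RPKM at 30 °C in wild-type iBAT, without overlap. In Ucp1-KO iBAT it had 91.6, 119.7 and 142 RPKM at 20 °C and 57.6, 97.2 and 119 RPKM at 30 °C, with overlap. The log2 differences were -0.87 and 0.33 and the interaction 1.20 ± 0.20, adjusted p = 3.36e-06 (limma); the rise in the knockout was not past the threshold when transcript rows were summed (0.21, adjusted p = 0.207, limma). Slc25a17 had 41.9, 68.7 and 72.5 RPKM at 20 °C and 105, 113 and 133 RPKM at 30 °C in wild-type iBAT. In Ucp1-KO iBAT it had 122, 135 and 145 RPKM at 20 °C and 80.7, 89.5 and 124 RPKM at 30 °C. All 8 wild-type libraries at 20 °C lay under the lowest at 30 °C, and the knockout groups overlapped only through the highest library at 30 °C; the interaction was 1.38 ± 0.12, adjusted p = 5.74e-12 (limma).

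Slc25a10 went the other way. It had 12.5, 17.1 and 25.3 RPKM at 20 °C and 6.08, 8.34 and 12.3 RPKM at 30 °C in wild-type iBAT, where all libraries at 20 °C were higher. In Ucp1-KO iBAT it had 7.10, 14.5 and 26.4 RPKM at 20 °C and 20.7, 31.9 and 43.9 RPKM at 30 °C, with overlap. The interaction was -1.84 ± 0.34, adjusted p = 2.47e-05 (limma). Slc25a25, a calcium-regulated ATP-Mg/phosphate carrier, was lower at 20 °C in both genotypes. Its levels were 1.94, 3.66 and 5.74 RPKM against 5.66, 7.65 and 11.2 RPKM in wild-type, and 2.33, 3.52 and 4.77 RPKM against 14.4, 18.3 and 26.6 RPKM in Ucp1-KO, 20 °C against 30 °C. The knockout groups did not overlap; the log2 differences were -0.93 and -2.16 and the interaction -1.23 ± 0.22, adjusted p = 9.54e-06 (limma). Ucp2 was also lower at 20 °C in both, by log2 differences of -0.86 and -1.30, and its interaction was not past the threshold (-0.44 ± 0.21, adjusted p = 0.0686, limma). Macrophage RNA was also lower at 20 °C. The sum of 9 macrophage markers was 74.7, 96.0 and 109 RPKM at 20 °C and 185, 211 and 311 RPKM at 30 °C in wild-type iBAT. In Ucp1-KO iBAT it was 114, 258 and 369 RPKM and 421, 1712 and 2384 RPKM. The groups did not overlap in either genotype; 7 and 9 of 9 markers were lower, against 33.0% and 59.5% of all genes. The part of macrophage RNA in the Ucp2 and Slc25a25 differences was not tested.

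**Figure D2:**
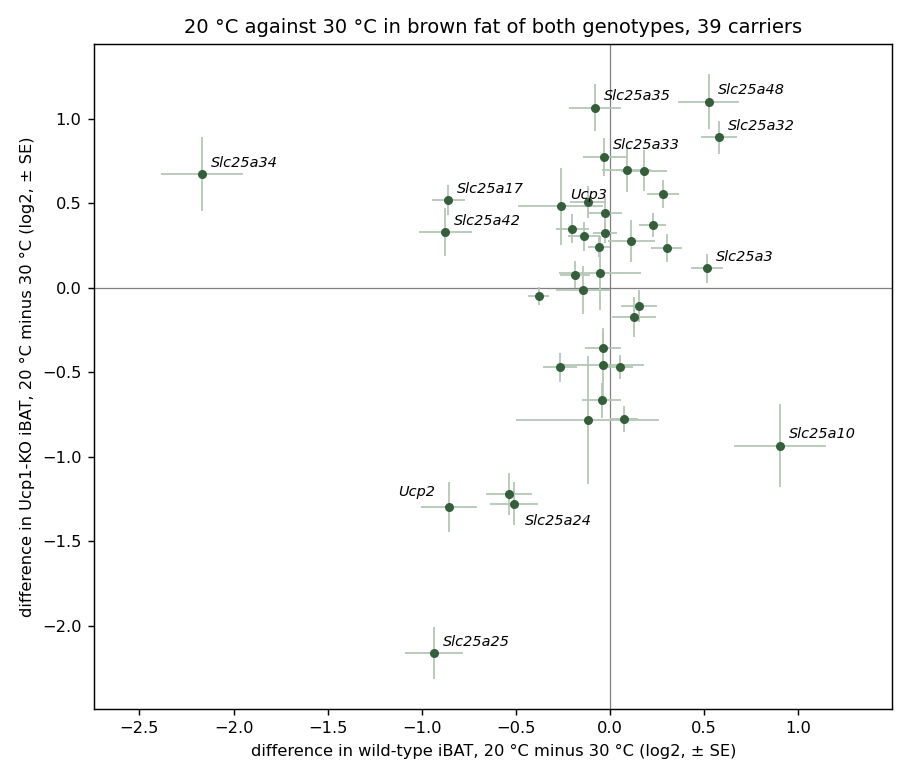
Log2 difference of each of 39 carriers between 20 °C and 30 °C in wild-type iBAT (x axis) and Ucp1-KO iBAT (y axis), with standard errors, from 8 libraries a group. Slc25a34, Slc25a17 and Slc25a42 lie in the upper left quadrant, Slc25a10 in the lower right, and Slc25a25 and Ucp2 in the lower left.

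By substrate class, the cofactor and nucleotide carriers rose at 20 °C in Ucp1-KO iBAT in 7 of 8 tested members and fell in 0, with a list median of 0.43 against -0.34 (log2) over all genes, of which 13.9% rose and 59.5% fell. In wild-type iBAT 1 rose and 3 fell of 8, shares near those of all genes (11.6% and 33.0%). Slc25a33 was among those with an interaction: its log2 differences were -0.03 in wild-type (not past the threshold) and 0.78 in Ucp1-KO iBAT, and the interaction was 0.81 ± 0.16, adjusted p = 5.54e-05 (limma). Slc25a32 (folate and FAD) rose in both genotypes, by 0.58 and 0.89 (log2). All 3 tested carriers of glutathione and S-adenosylmethionine rose in Ucp1-KO iBAT: Slc25a39 by 0.70, Slc25a26 by 0.24 and Slc25a40 by 0.23 (log2). Of the uncoupling protein branch 3 of 5 fell in the knockout, a share near that of all genes (59.5%), namely Ucp2, Slc25a14 and Slc25a30, of which the Slc25a14 call was lost under median-ratio scaling (-0.15, adjusted p = 0.163, limma). Slc25a35 (substrate not settled) and Slc25a48 rose in Ucp1-KO iBAT by 1.07 and 1.10 (log2).

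Of the carriers of ATP synthesis, Slc25a3 rose at 20 °C in wild-type iBAT from a median of 137 to 193 RPKM (0.51 ± 0.09, adjusted p = 3.40e-06, limma), and its log2 difference in Ucp1-KO iBAT was 0.12. The interaction of -0.40 ± 0.12, adjusted p = 0.00553 (limma) was not past the threshold under median-ratio scaling (-0.15). Slc25a5 had a log2 difference of -0.03 in wild-type, not past the threshold, and rose by 0.33 in Ucp1-KO iBAT, with an interaction of 0.35 ± 0.09, adjusted p = 0.00108 (limma). Slc25a4 had log2 differences of -0.05 and 0.09, neither past the threshold. Slc25a37 fell in both genotypes (log2 differences of -0.27 and -0.47), calls that were lost under median-ratio scaling (-0.14 and -0.12; under quantile normalization the Ucp1-KO value was 0.00138). Slc25a44 fell in wild-type iBAT (log2 difference -0.19), a call also lost under that scaling (-0.02), and had 0.08 in Ucp1-KO iBAT. Ucp3 had log2 differences of -0.26 and 0.48, neither past the threshold. Median-ratio scaling also gained calls, all higher at 20 °C in Ucp1-KO iBAT (limma). They were Slc25a3 (0.53, adjusted p = 1.18e-07), Slc25a4 (0.51, adjusted p = 0.0392), Slc25a44 (0.49, adjusted p = 1.67e-06) and Ucp3 (0.89, adjusted p = 9.87e-04). Without the 19 libraries high in other RNA, Slc25a4 (0.29, adjusted p = 0.00676) and Ucp3 (0.70, adjusted p = 0.0142) passed there too (limma).

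The promoters of Slc25a34, Slc25a42 and Slc25a10 are shown as examples of members that temperature moved in opposite directions in the genotypes. Slc25a17 moved so too and is not shown. Slc25a25 is shown for its fall in both. The sequences are the 250 bases before the annotated start, written 5′ to 3′ in the direction of the gene, from RefSeq on GRCm38.p6. Capitals mark matches, on either strand, to AAGGTCA (bound by nuclear receptors such as the oestrogen-related receptors), TGACGTCA (the palindromic cyclic AMP response element) and CCAAT (read by NF-Y). No marked matches overlap. For Slc25a25 the window was picked because it holds TGACGTCA, so that match was fixed in advance. For the others the first listed window is shown.
Slc25a34 (GRCm38.p6, chr4:141623835-141624084, minus strand): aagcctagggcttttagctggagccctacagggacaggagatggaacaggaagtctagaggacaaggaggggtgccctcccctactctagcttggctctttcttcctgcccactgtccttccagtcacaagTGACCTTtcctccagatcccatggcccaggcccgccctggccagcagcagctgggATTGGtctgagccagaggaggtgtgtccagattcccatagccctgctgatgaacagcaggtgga
Slc25a42 (GRCm38.p6, chr8:70212282-70212531, minus strand): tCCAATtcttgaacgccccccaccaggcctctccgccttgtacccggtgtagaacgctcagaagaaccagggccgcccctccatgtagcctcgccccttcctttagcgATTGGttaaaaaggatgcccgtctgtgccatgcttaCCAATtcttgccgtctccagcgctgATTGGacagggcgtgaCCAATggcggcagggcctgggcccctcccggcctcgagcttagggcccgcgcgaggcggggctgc
Slc25a10 (GRCm38.p6, chr11:120491587-120491836, plus strand): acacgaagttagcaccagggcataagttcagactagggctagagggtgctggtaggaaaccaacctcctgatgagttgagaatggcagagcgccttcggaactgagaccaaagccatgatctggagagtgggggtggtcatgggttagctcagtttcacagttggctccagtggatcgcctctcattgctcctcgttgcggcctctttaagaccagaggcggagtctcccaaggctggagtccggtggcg
Slc25a25 (GRCm38.p6, chr2:32424067-32424316, minus strand): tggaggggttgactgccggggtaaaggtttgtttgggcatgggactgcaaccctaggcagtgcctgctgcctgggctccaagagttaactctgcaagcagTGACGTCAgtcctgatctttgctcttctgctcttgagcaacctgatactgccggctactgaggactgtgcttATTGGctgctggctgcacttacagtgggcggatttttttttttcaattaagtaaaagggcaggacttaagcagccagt

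Of the 47 members, 36 had at least 1 of 46 such windows in the RefSeq table. AAGGTCA was found in 1 of the 46, that of Slc25a34 (2.17%), where 4.08% of 32851 windows of all genes held it. TGACGTCA was found in 2 of the 46, of Slc25a25 and Slc25a36 (4.35%), against 1.55% of all windows. CCAAT was found in 20 of the 46 (43.48%), which belonged to 17 members, against 33.85% of all windows. Slc25a42 held 5 copies of CCAAT, a number reached by 0.213% of all windows, and Slc25a10 held none of the 3 motifs. A match is a string of letters and was not tested as a binding site.

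Genotype differences in iBAT were then read within each condition. Ucp1-KO iBAT at 20 °C had 13 members higher and 7 lower than wild-type (limma), against 24.7% and 13.1% of all genes, and 11 and 7 with median-ratio scaling. Ucp1-KO iBAT at 30 °C had 14 members higher and 14 lower than wild-type (limma), against 54.2% and 10.5% of all genes, and 9 and 22 with median-ratio scaling. Ucp1-KO iBAT on high fat diet at 30 °C had 16 members higher and 10 lower than wild-type (limma), against 52.8% and 11.0% of all genes, and 11 and 18 with median-ratio scaling. That scaling called 6014, 8409 and 7941 of 14807 genes (20 °C, 30 °C, high fat diet). Of these calls 51.5%, 52.0% and 51.1% were higher. Without it the median of all genes lay at 0.27 and 0.25 (log2) at 30 °C on control and high fat diet. Ucp2 was higher in knockout iBAT in each condition. Its levels at 30 °C were 44.8, 52.9 and 63.4 RPKM in wild-type and 84.7, 185 and 247 RPKM in Ucp1-KO, with no overlap. The log2 differences were 1.18 ± 0.15, adjusted p = 6.11e-09 at 20 °C, 1.63 ± 0.15, adjusted p = 6.88e-13 at 30 °C and 1.37 ± 0.15, adjusted p = 6.42e-11 on high fat diet (limma). Slc25a10 was higher in Ucp1-KO iBAT at 30 °C (1.65 ± 0.24, adjusted p = 1.25e-07) and on high fat diet (1.59 ± 0.24, adjusted p = 3.10e-07), and its difference at 20 °C was -0.19 ± 0.24, adjusted p = 0.587 (limma). Slc25a25 differed by -0.07, 1.15 and 1.71 (log2) at 20 °C, 30 °C and with high fat diet, of which the first was not past the threshold. Slc25a24, another calcium-regulated ATP-Mg/phosphate carrier tested here, differed by 1.08 at 30 °C and 0.88 on high fat diet (log2). For Ucp1-KO against wild-type iBAT at 20 °C, the log2 differences past the threshold included lower values for Slc25a38 (-0.58), Slc25a48 (-0.55), Slc25a16 (-0.45) and Slc25a23 (-0.38).

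Summed macrophage RNA was higher in Ucp1-KO than in wild-type iBAT in each condition, without overlap, also at 20 °C, where Slc25a10 and Slc25a25 did not pass. The sum of 9 macrophage markers in iBAT had lowest, median and highest values of 185, 211 and 311 RPKM in wild-type and 421, 1712 and 2384 RPKM in Ucp1-KO mice at 30 °C. It was 144, 187 and 435 RPKM and 563, 1036 and 1840 RPKM on high fat diet, and 74.7, 96.0 and 109 RPKM and 114, 258 and 369 RPKM at 20 °C. All 9 tested markers were higher in the knockout at 30 °C, where 54.2% of all genes were. T cell markers (6 genes) summed to 1.57 to 9.90 RPKM and 8.06 to 36.0 RPKM there, and B cell markers (5 genes) to at most 34.8 RPKM in any iBAT library. The part of this RNA in the Ucp2, Slc25a24 and Slc25a25 differences was not tested. The sum of 8 brown adipocyte markers, Ucp1 included, ran from 10055 to 12551 RPKM in wild-type and from 2370 to 4992 RPKM in Ucp1-KO iBAT at 30 °C on control diet. On high fat diet it ran from 7377 to 12179 RPKM and from 1796 to 3400 RPKM, again without overlap, and at 20 °C from 6082 to 9966 RPKM and from 5248 to 7293 RPKM, with overlap. By the medians given above, Ucp1, which the knockout label names, made up a large part of this sum in wild-type iBAT. The ranges therefore do not tell how the other markers of the list differed.

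Ucp3 was lower in Ucp1-KO iBAT. Its levels at 30 °C were 67.8, 85.2 and 107 RPKM in wild-type and 15.0, 26.6 and 52.8 RPKM in Ucp1-KO mice, without overlap. The log2 differences were -0.82 ± 0.23, adjusted p = 0.00333 at 20 °C, -1.56 ± 0.23, adjusted p = 8.01e-08 at 30 °C and -0.55 ± 0.23, adjusted p = 0.0316 on high fat diet (limma). Slc25a34 differed by 1.88 ± 0.22, adjusted p = 1.53e-09 at 20 °C, -0.97 ± 0.22, adjusted p = 1.67e-04 at 30 °C and -0.87 ± 0.22, adjusted p = 6.59e-04 on high fat diet (limma): higher in the knockout at the lower temperature and lower at the higher. Slc25a42 had 0.63, -0.58 and -1.52 (log2), and Slc25a17 had 1.08, -0.30 and -0.17, of which the last passed, among the settings tried, only with median-ratio scaling (-0.48, adjusted p = 3.50e-05, limma) or quantile normalization. Slc25a35 was lower in the knockout with log2 differences of -1.37 at 30 °C and -1.27 on high fat diet. The same pair of differences was -1.13 and -1.47 for Slc25a48 and -0.90 and -1.02 for Slc25a23.

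Both mitoferrins were higher in Ucp1-KO iBAT. Slc25a28 (mitoferrin 2) differed by 0.85, 0.71 and 0.92 (log2; 20 °C, 30 °C, high fat diet), and Slc25a37 by 0.38, 0.58 and 0.47. Quantile normalization removed the last Slc25a37 call (0.10, adjusted p = 0.242, limma). Slc25a33 differed by 0.29, -0.52 and -0.25 (log2); the first and last were not past the threshold without the 19 libraries high in RNA of other tissues (0.20 and -0.21). Slc25a39 was higher by 0.77 at 20 °C. Slc25a3 was higher by 0.40 at 30 °C, a call lost with median-ratio scaling (0.07), and by 0.51 on high fat diet. Slc25a5 was higher by 0.37 at 20 °C and by 0.29 on high fat diet, where median-ratio scaling gave -0.02. Without such scaling and with all libraries, Slc25a4 and Slc25a44 passed in none of the 3 conditions, with log2 differences of -0.09, -0.23 and 0.40 for Slc25a4 and 0.12, -0.15 and -0.09 for Slc25a44. Slc25a4 at 30 °C was past the threshold without those 19 libraries (-0.39, adjusted p = 8.87e-04, limma) and with median-ratio scaling (-0.56, adjusted p = 0.0259, limma). Median-ratio scaling also called Slc25a44 lower in Ucp1-KO iBAT at 30 °C (-0.47, adjusted p = 4.58e-06, limma) and on high fat diet (-0.40, adjusted p = 8.43e-05, limma). At 30 °C this scaling turned Slc25a5 from 0.02 (log2) to a lower call (-0.31, adjusted p = 1.11e-05, limma). It removed the Slc25a33 call at 20 °C (0.21, adjusted p = 0.134, limma).

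**Figure D3:**
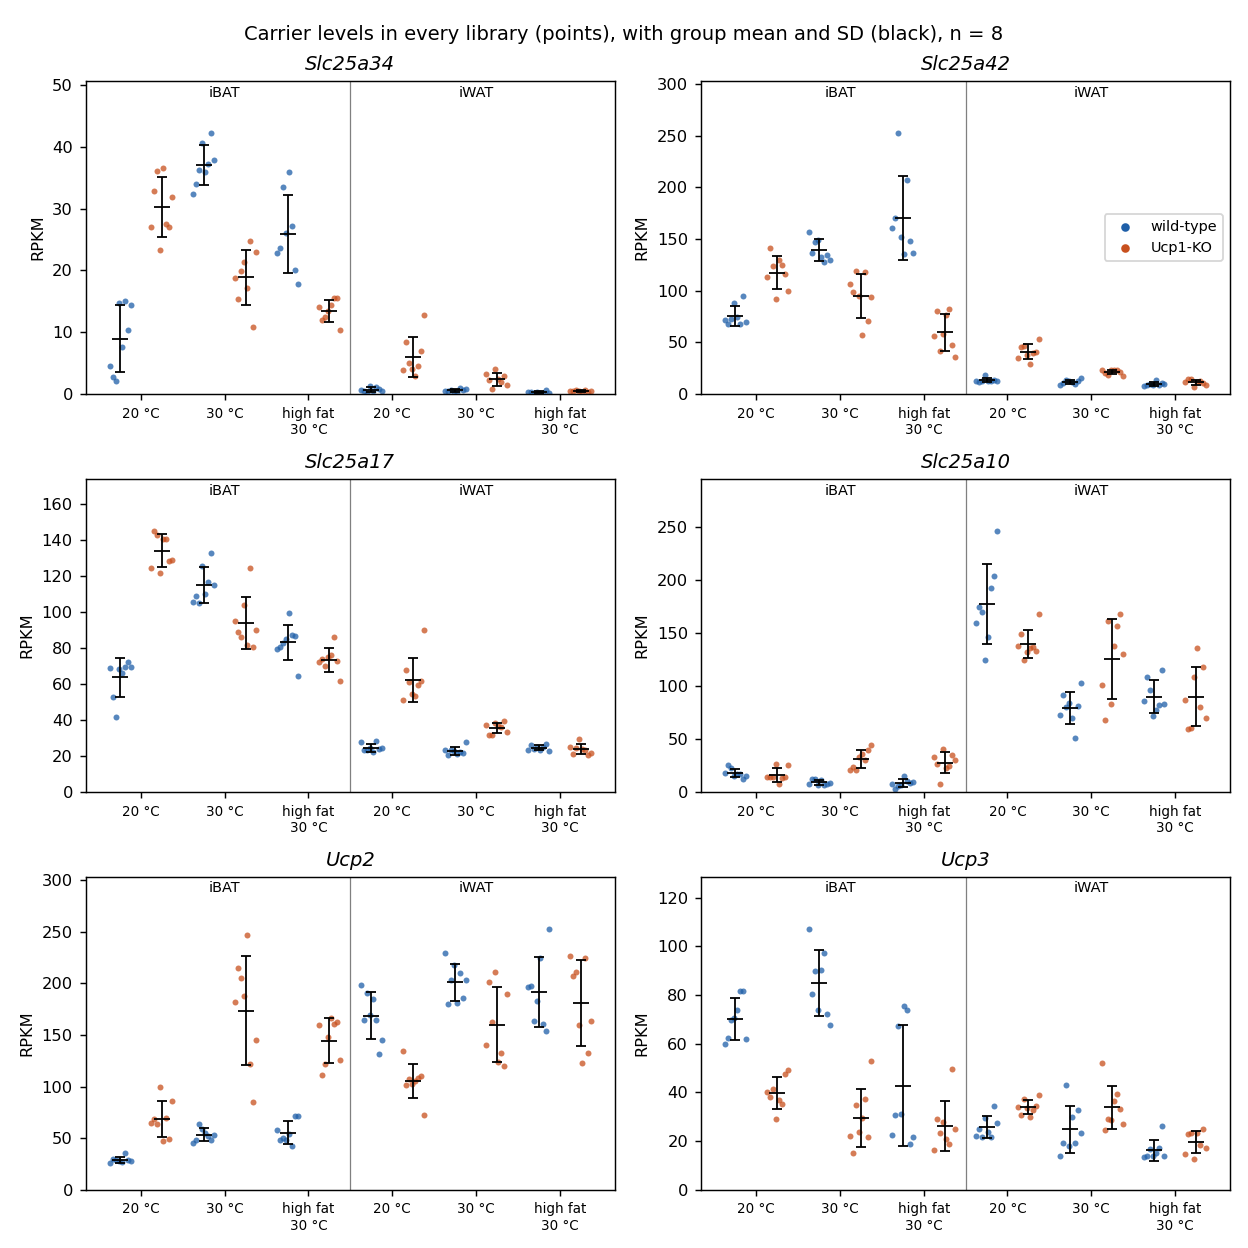
Levels (RPKM) of 6 carriers in each of the 96 libraries (points; blue wild-type, orange Ucp1-KO), with the mean and SD of each group of 8 in black, for iBAT (left) and iWAT (right) in 3 conditions. Slc25a34 in iBAT is lower at 20 °C than at 30 °C in wild-type (medians 9.05 and 36.7 RPKM) and higher in Ucp1-KO (29.6 and 19.3 RPKM).

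High fat diet at 30 °C was compared with control diet at the same temperature. In wild-type iBAT 4 members were higher and 13 lower (limma), against 18.5% and 14.5% of all genes. In Ucp1-KO iBAT 4 were higher and 8 lower, against 8.35% and 8.02%; with a fit on these groups alone there were 3 and 4. Ucp3 in wild-type iBAT had 18.8, 31.0 and 75.4 RPKM on high fat diet against 67.8, 85.2 and 107 RPKM on control diet, with overlap (-1.16 ± 0.23, adjusted p = 8.01e-05, limma). Slc25a5 had 57.1, 62.2 and 71.8 RPKM against 83.5, 88.9 and 97.6 RPKM, without overlap (-0.50 ± 0.06, adjusted p = 5.05e-08, limma). Slc25a4 changed by -0.68 and Slc25a44 by -0.25, while Slc25a3 rose by 0.28 and Slc25a24 by 0.77, all log2 differences in wild-type. Summed skeletal muscle markers (lowest, median, highest) were 19.8, 414 and 751 RPKM on high fat and 92.4, 364 and 3753 RPKM on control diet. Their part in the Slc25a4 change was not tested. In Ucp1-KO iBAT Slc25a3 rose by 0.38, Slc25a24 by 0.58 and Slc25a25 by 0.62, and Slc25a48 changed by -0.91 and Slc25a42 by -0.68. For wild-type iBAT on high fat against control diet, the log2 differences past the threshold included higher values for Slc25a30 (0.32) and Slc25a37 (0.23) and lower values for Slc25a48 (-0.57) and Slc25a35 (-0.52). For Ucp1-KO iBAT on high fat against control diet, the log2 differences past the threshold included lower values for Slc25a35 (-0.43) and Slc25a17 (-0.34). The Slc25a37 call in wild-type iBAT was lost without the 19 libraries (0.23, adjusted p = 0.0623, limma).

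The interaction of genotype and diet was past the threshold in 4 members, 2 positive and 2 negative, against 2.78% and 3.78% of all genes, and in 2 with a fit on the groups compared alone. Slc25a42 had a log2 difference by diet of 0.26 in wild-type and -0.68 in Ucp1-KO iBAT (interaction -0.94 ± 0.20, adjusted p = 0.00238, limma). For Slc25a16, a carrier linked to coenzyme A, these were -0.57 and 0.33 (interaction 0.90 ± 0.17, adjusted p = 0.00114, limma). Ucp3 had -1.16 and -0.15 (interaction 1.01 ± 0.32, adjusted p = 0.0458, limma), which did not pass without the 19 libraries high in other RNA (adjusted p = 0.0656, limma).

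In iWAT the temperature comparison gave 13 members higher and 3 lower at 20 °C in wild-type mice (limma), against 7.25% and 12.4% of all genes. Median-ratio scaling gave 18 and 0, and leaving out the 19 libraries high in other RNA left 8 and 0. Of all genes 2199 and 1266 were called in these settings, 70.8% and 48.6% of them higher. In Ucp1-KO iWAT 15 were higher and 13 lower at 20 °C, against 9.02% and 51.4% of all genes, with 20 and 7 under median-ratio scaling, where the median of all genes had been -0.25 (log2). That scaling called 6033 of all genes, 63.4% of them higher. Slc25a10 in wild-type iWAT had 125, 172 and 247 RPKM at 20 °C and 51.0, 80.7 and 102 RPKM at 30 °C, without overlap (1.15 ± 0.16, adjusted p = 1.48e-06, limma). Slc25a35 rose by 1.14 and 0.86 (log2) in wild-type and Ucp1-KO, Slc25a33 by 0.77 and 0.77, and Slc25a39 by 0.71 and 0.74. Slc25a44 rose by 0.28 and 0.41, of which the wild-type call was lost without those libraries (adjusted p = 0.142, limma). For wild-type iWAT at 20 °C against 30 °C, the log2 differences past the threshold included higher values for Slc25a48 (0.57) and lower values for Slc25a12 (-0.51) and Slc25a24 (-0.35). For Ucp1-KO iWAT at 20 °C against 30 °C, the log2 differences past the threshold included higher values for Slc25a48 (1.09), Slc25a34 (1.00), Slc25a42 (0.90) and Slc25a17 (0.78) and lower values for Slc25a25 (-0.95), Slc25a12 (-0.79), Slc25a45 (-0.70), Slc25a37 (-0.66) and Ucp2 (-0.59). The Ucp2 call was lost with median-ratio scaling (-0.23, adjusted p = 0.0730, limma); summed macrophage markers ran from 354 to 775 RPKM at 20 °C and from 560.3 to 1421 RPKM at 30 °C, and their part in it was not tested. In wild-type iWAT the Slc25a12 and Slc25a24 calls were lost with median-ratio scaling (-0.42, adjusted p = 0.0981 and -0.26, adjusted p = 0.0849, limma) and without the 19 libraries (-0.31, adjusted p = 0.307 and -0.29, adjusted p = 0.168, limma). That scaling called Slc25a3 higher at 20 °C in both genotypes (0.25, adjusted p = 0.00807 and 0.23, adjusted p = 0.00657, limma) and Slc25a10 higher in Ucp1-KO (0.56, adjusted p = 0.0102, limma). Without scaling the Slc25a3 values were 0.16 in wild-type and -0.13 in Ucp1-KO (log2), neither past the threshold, so its sign in Ucp1-KO turned.

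The genotype comparison in iWAT at 20 °C gave 15 members higher and 16 lower in Ucp1-KO (limma), against 9.85% and 55.0% of all genes, and 22 and 7 with median-ratio scaling, where the median of all genes had been -0.27 (log2). At 30 °C 18 were higher and 3 lower, against 7.54% and 16.2% of all genes (19 and 0 with median-ratio scaling, median of all genes without it -0.12). That scaling called 7761 and 2550 of all genes (20 °C, 30 °C), 54.5% and 68.3% of them higher. In the high fat groups 0 were higher and 0 lower, against 0.195% and 0.0881% of all genes. There 4 of 40 members had an unadjusted p under 0.05 (limma), among them Slc25a14, Slc25a38 and Slc25a51, named after their values were seen. The share of all genes with an unadjusted p under 0.05 was not counted. Differences in the high fat groups ran from -0.19 to 0.39 (log2) over the 40 members, which does not show that the genotypes were alike. For Ucp1-KO against wild-type iWAT at 20 °C, the log2 differences past the threshold included lower values for Slc25a45 (-0.78) and Slc25a12 (-0.67). For Ucp1-KO against wild-type iWAT at 30 °C, the log2 differences past the threshold included higher values for Slc25a42 (0.79) and Slc25a10 (0.62) and lower values for Slc25a45 (-0.38). Median-ratio scaling removed the calls of Slc25a12 at 20 °C (-0.37, adjusted p = 0.0730, limma) and of Slc25a45 at 30 °C (-0.27, adjusted p = 0.0992, limma), the latter also lost without the 19 libraries (-0.38, adjusted p = 0.178, limma).

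Slc25a34 had 0.224, 0.597 and 1.27 RPKM in wild-type and 2.97, 4.75 and 12.7 RPKM in Ucp1-KO iWAT at 20 °C. The groups did not overlap (1.98 ± 0.17, adjusted p = 1.71e-12, limma; 2.96 with a pseudocount of 0.1). At 30 °C it had 0.329, 0.574 and 0.974 RPKM and 0.904, 2.33 and 4.11 RPKM, with overlap (1.04 ± 0.17, adjusted p = 2.37e-05, limma; 1.79 with a pseudocount of 0.1). Slc25a42 had 11.3, 13.1 and 18.9 RPKM in wild-type and 29.6, 40.1 and 53.6 RPKM in Ucp1-KO iWAT at 20 °C, again without overlap (1.52 ± 0.11, adjusted p = 2.46e-14, limma). Slc25a17 was higher in Ucp1-KO by 1.29 at 20 °C and 0.62 at 30 °C, Slc25a48 by 1.13 and 0.62, and Slc25a51 by 1.10 and 0.71, all log2 differences past the threshold without overlap between the groups.

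Ucp2 was lower in Ucp1-KO iWAT. It had 131, 167 and 199 RPKM in wild-type and 72.2, 106 and 134 RPKM in Ucp1-KO iWAT at 20 °C, with slight overlap (-0.68 ± 0.13, adjusted p = 1.57e-05, limma). At 30 °C its log2 difference was -0.35, which did not pass with median-ratio scaling (adjusted p = 0.105, limma) or without the 19 libraries high in other RNA (adjusted p = 0.146, limma). The summed macrophage markers at 20 °C were 799.7, 988 and 1645 RPKM in wild-type and 354, 612 and 775 RPKM in Ucp1-KO iWAT. Of the 9 tested markers 8 were lower, against 55.0% of all genes. With median-ratio scaling 6 of 9 were lower, where 7761 of all genes were called, 54.5% of them higher. B cell markers summed to 187, 209.8 and 321 RPKM in wild-type and 46.4, 90.1 and 166 RPKM in Ucp1-KO iWAT, without overlap. T cell markers summed to 92.6, 125 and 181 RPKM and 32.8, 51.6 and 103 RPKM, with overlap. The part of RNA of these immune cells in the Ucp2 difference was not tested. The sum of 8 brown adipocyte markers, Ucp1 included, was 339, 689 and 988 RPKM and 1626, 2050 and 4231 RPKM. Ucp3 was higher by 0.40 at 20 °C and 0.48 at 30 °C (log2). Slc25a37 was lower (log2 differences -0.74 and -0.41) and Slc25a44 higher by 0.43 and 0.30; the Slc25a37 call at 30 °C did not pass with median-ratio scaling (-0.30) or without those libraries (-0.32), nor did the Slc25a44 call at 30 °C without them (0.35, adjusted p = 0.0904, limma). Slc25a5 was higher by 0.26 and 0.32, and Slc25a33 by 0.54 and 0.54. Slc25a3 was higher at 30 °C by 0.16, a difference that quantile normalization turned to -0.02. The values of Slc25a4 were 0.20 and 0.07 and those of Slc25a25 -0.34 and 0.32 at 20 °C and 30 °C, none past the threshold. With median-ratio scaling Slc25a4 passed at 20 °C (0.57, adjusted p = 0.00576, limma). Slc25a3 did too (0.25, adjusted p = 0.00227, limma), though its value without scaling was -0.12 (log2) and not past the threshold.

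The depot comparison in wild-type mice at 30 °C and the genotype comparison in iWAT at 20 °C share no library. All 15 members higher in Ucp1-KO iWAT were among the 21 higher in iBAT (71.4% of the latter). Of 16 members lower in Ucp1-KO iWAT, 15 were among the 18 lower in iBAT (93.8% and 83.3%). The exception was Slc25a15, an ornithine carrier, with log2 differences of 0.54 by depot and -0.40 by genotype, where its call was lost with median-ratio scaling (-0.09, adjusted p = 0.643, limma). Across the 40 members the 2 sets of differences had r = 0.91 as a description. The points share the 96-library table and are not independent replicates. Of all genes, 61.8% were lower by depot and 55.0% by genotype, against 19.5% and 9.85% higher. The overlap and r were not computed over all genes, so whether they are particular to the carriers was not tested.

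**Figure D4:**
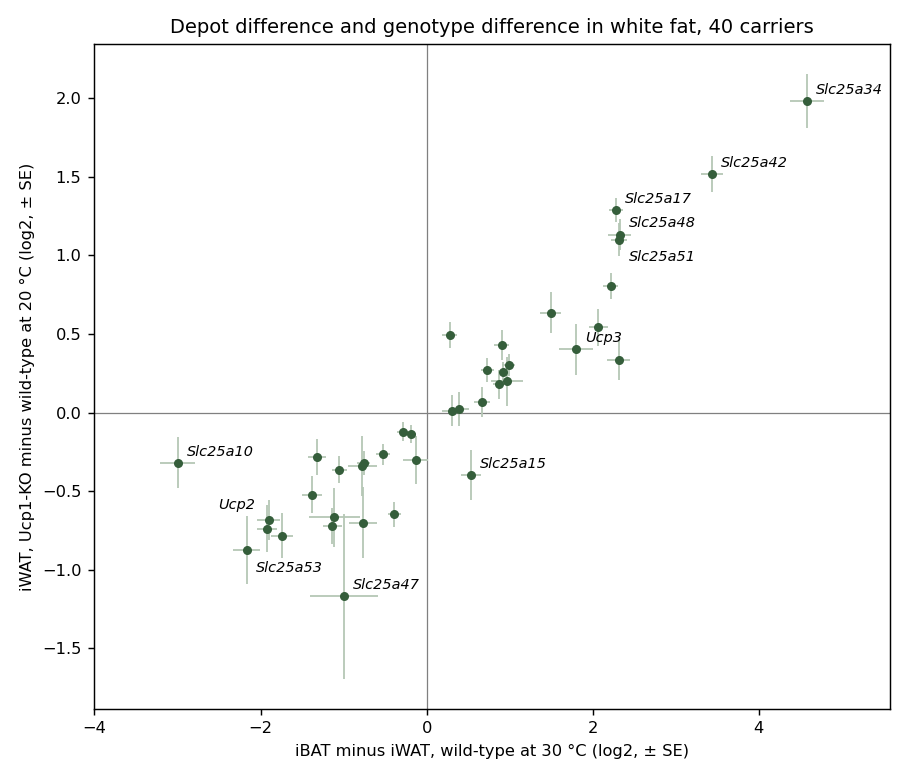
Log2 difference of each of 40 carriers between iBAT and iWAT of wild-type mice at 30 °C (x axis) and between Ucp1-KO and wild-type iWAT at 20 °C (y axis), with standard errors, from 8 libraries a group and no shared library. Slc25a34 (4.58 and 1.98) and Slc25a42 (3.44 and 1.52) lie at the upper right and Slc25a15 alone among called members lies in the lower right quadrant.

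The interaction of genotype and temperature in iWAT was past the threshold in 9 members, 5 positive and 4 negative (limma), against 2.15% and 11.1% of all genes. Median-ratio scaling gave 8 and 2 (median of all genes without it -0.16). That scaling called 1397 of all genes, 84.1% of them positive. Slc25a34 had 0.94 ± 0.24, adjusted p = 0.00975, Slc25a42 0.73 ± 0.16, adjusted p = 0.00285 and Slc25a17 0.67 ± 0.11, adjusted p = 8.86e-05 (limma), each positive as in iBAT. Slc25a10 had -0.94 ± 0.23, adjusted p = 0.00648 (limma), negative as in iBAT, and did not pass with median-ratio scaling (adjusted p = 0.0801, limma). For the iWAT interaction with temperature, the log2 differences past the threshold included positive values for Slc25a48 (0.51) and Slc25a32 (0.37) and negative values for Slc25a38 (-0.57) and Slc25a3 (-0.28). The Slc25a3 value was lost with median-ratio scaling (-0.03, adjusted p = 0.910, limma), and those of Slc25a48 and Slc25a32 without the 19 libraries (0.41, adjusted p = 0.0927 and 0.37, adjusted p = 0.104, limma).

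High fat diet in wild-type iWAT went with 2 members higher and 4 lower (limma), against 9.69% and 3.84% of all genes, and with 1 and 1 without the 19 libraries high in other RNA. In Ucp1-KO iWAT 3 were higher and 17 lower, against 16.1% and 8.31% of all genes. There Slc25a34 had 0.247, 0.467 and 0.737 RPKM on high fat diet and 0.904, 2.33 and 4.11 RPKM on control diet, without overlap (-1.13 ± 0.17, adjusted p = 3.10e-06, limma; -2.01 with a pseudocount of 0.1). Slc25a42 differed by -0.87, Slc25a48 by -0.83, Slc25a51 by -0.80, Slc25a33 by -0.79 and Ucp3 by -0.75, all log2 differences toward lower levels on high fat diet. Slc25a24 was higher by 0.50, Slc25a30 by 0.40 and Slc25a40 by 0.28. The interaction of genotype and diet was past the threshold in 6 members, 0 positive and 6 negative, against 0.101% and 1.23% of all genes. These were Slc25a17, Slc25a33, Slc25a34, Slc25a35, Slc25a42 and Slc25a48, of which Slc25a48 alone passed without those libraries. For wild-type iWAT on high fat against control diet, the log2 differences past the threshold included higher values for Slc25a30 (0.38) and lower values for Ucp3 (-0.53), Slc25a51 (-0.47), Slc25a22 (-0.31) and Slc25a32 (-0.24). For the iWAT interaction with diet, the log2 differences past the threshold included negative values for Slc25a17 (-0.66), Slc25a48 (-0.65), Slc25a33 (-0.69), Slc25a42 (-0.62) and Slc25a35 (-0.70). In wild-type iWAT the calls of Slc25a22, Slc25a32 and Ucp3 were lost without the 19 libraries (-0.34, adjusted p = 0.0585; -0.26, adjusted p = 0.117; -0.20, adjusted p = 0.490, limma), and that of Slc25a32 also with median-ratio scaling (-0.25, adjusted p = 0.0949, limma). In Ucp1-KO iWAT that of Slc25a30 was lost with median-ratio scaling (0.32, adjusted p = 0.0609, limma) and that of Slc25a40 without the 19 libraries (0.23, adjusted p = 0.0790, limma). Median-ratio scaling removed the Slc25a34 and Slc25a35 interactions with diet (-0.94, adjusted p = 0.0576 and -0.76, adjusted p = 0.0612, limma).

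Genes that work with the carriers were counted in the same comparisons, each beside the shares of all genes that were higher and lower. Where median-ratio scaling changed a count, both are given. The shares are without that scaling, and its calls over all genes are given above for each comparison. Between iBAT and iWAT of wild-type mice at 30 °C (all genes 19.5% and 61.8%), the machinery that imports carriers had 12 higher and 0 lower of 12 tested. The enzymes of the malate-aspartate and glycerol phosphate shuttles had 6 higher and 0 lower of 6 tested in this comparison. The outer membrane homologues Mtch1 and Mtch2 were both higher in iBAT, at 0.65 and 1.25 (log2). At 20 °C against 30 °C in wild-type iBAT (all genes 11.6% and 33.0%), the import machinery had 0 higher and 6 lower of 12 tested (1 and 4 with median-ratio scaling). There Tomm70a, the outer membrane receptor of carrier precursors, had a log2 difference of -0.67.

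In the genotype by temperature interaction in iBAT (all genes 11.9% and 40.5%), the shuttle enzymes had 6 higher and 0 lower of 6 tested, with Got1, the cytosolic aspartate aminotransferase, at 1.70 and Gpd2, the mitochondrial glycerol phosphate dehydrogenase, at 1.22 (log2). In Ucp1-KO against wild-type iWAT at 30 °C (all genes 7.54% and 16.2%), the import machinery had 10 higher and 0 lower of 12 tested (11 and 0 with median-ratio scaling) and ATP synthase subunits had 12 higher and 0 lower of 13 tested. Other mitochondrial membrane transporters had 7 higher and 0 lower of 21 tested (9 and 0 with median-ratio scaling) there, among them Mpc1 and Mpc2, the subunits of the pyruvate carrier, at 1.13 and 1.05 (log2). In Ucp1-KO against wild-type iBAT at 30 °C (all genes 54.2% and 10.5%), ATP synthase subunits had 2 higher and 5 lower of 13 tested (0 and 10 with median-ratio scaling). That scaling called 8409 of all genes there, 52.0% of them higher.

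RNA of other tissues moved with a few members. Slc25a12, the aspartate/glutamate carrier of excitable tissues, and Slc25a4, also the main translocase of muscle, were highest in libraries rich in skeletal muscle markers. In Ucp1-KO iBAT on high fat diet Slc25a12 had 2.92, 6.93 and 30.0 RPKM and Slc25a4 had 146, 190.2 and 697 RPKM; the highest of both came from replicate 7, with a muscle marker sum of 9428 RPKM. In Ucp1-KO iBAT at 30 °C the highest values, 27.8 and 646.1 RPKM, came from replicate 8 with 10193 RPKM. The muscle marker sum in these groups ranged from 24.3 to 9428 RPKM and from 76.4 to 10193 RPKM. Slc25a12 was higher in Ucp1-KO than wild-type iBAT by 0.93 at 30 °C and 1.21 on high fat diet (log2), and by 0.83 and 0.58 without the 19 libraries, past the threshold in each (limma). Its call at 30 °C was lost with median-ratio scaling (0.65, adjusted p = 0.130, limma).

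Slc25a47, a carrier of hepatocytes, had 0.979, 2.06 and 105 RPKM in wild-type iWAT at 20 °C. The highest library, replicate 6, had a sum of 10 hepatocyte markers of 6803 RPKM, and the next, replicate 4, had 25.8 RPKM of Slc25a47 and a sum of 1650 RPKM. The difference between Ucp1-KO and wild-type iWAT at 20 °C was -1.17 ± 0.52, adjusted p = 0.0480 (limma), and -0.05 (adjusted p = 0.907, limma) without the libraries high in other RNA. The differences of Slc25a13 and Slc25a15 in that comparison, -0.70 and -0.40 (log2), also did not pass without them (-0.23 and -0.10). The hepatocyte list was added after values had been seen.

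**Figure D5:**
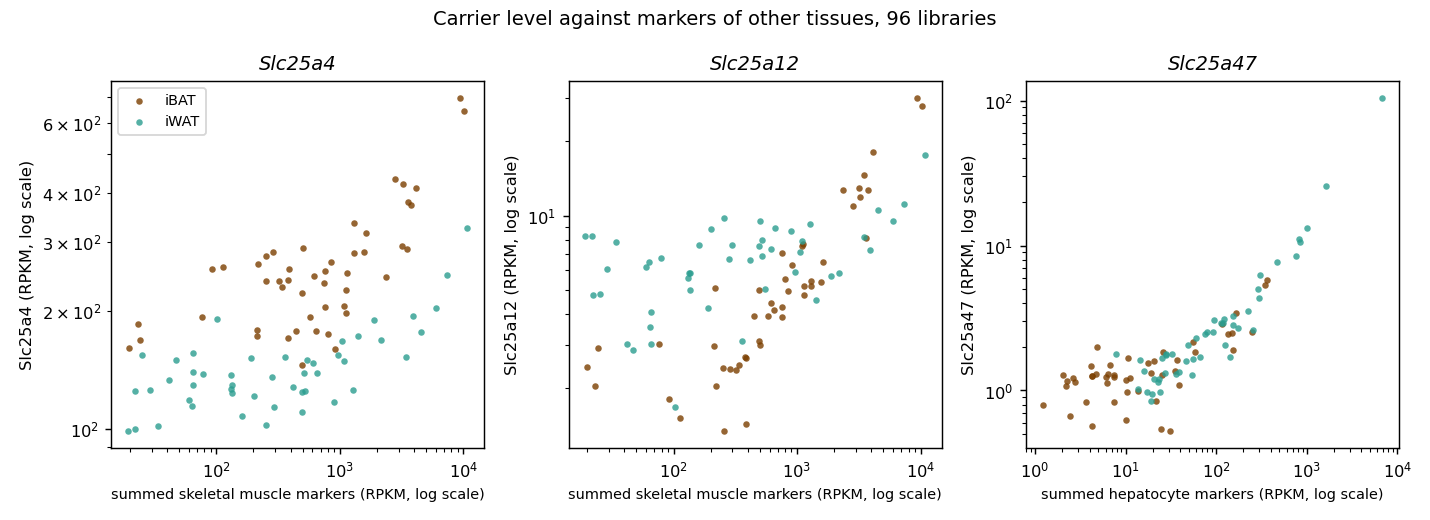
Levels of Slc25a4 and Slc25a12 against the sum of 10 skeletal muscle markers, and of Slc25a47 against the sum of 10 hepatocyte markers, in 96 libraries (brown iBAT, green iWAT; both axes log scale, RPKM). The library with 104.7 RPKM of Slc25a47 is the one with the highest hepatocyte sum, 6803 RPKM.

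The choice of transcript matters for some members. For Slc25a36, Slc25a3, Slc25a16, Slc25a53 and Slc25a38 the least similar other transcript with a mean above 1 RPKM had a correlation with the transcript used of -0.11, 0.21, 0.44, 0.53 and 0.54 over the 96 libraries. By RefSeq, 7 members overlap another protein-coding gene, among them Slc25a25 with Naif1, Slc25a35 with Rangrf and Slc25a11 with Rnf167; the counting strand is not stated, so reads of these pairs may be mixed.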

How the data were processed

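RNA was measured in 96 libraries from iBAT and iWAT, with polyadenylated RNA libraries made with a TruSeq stranded kit, per the labels' protocols. The authors deposited RPKM values for 168326 transcripts. CASAVA and bcl2fastq are named in the submitters' processing notes; aligner, counter, genome build and counting strand: not given in the sources used here. Rows without a gene ID (13.8%) were left out. Each symbol was read from its transcript with the highest mean. At depths of 8.9 to 19.2 M reads, recovered from the steps between low values (95.0 to 95.7% whole within 0.05), 1 read on 1 kb is worth 0.052 to 0.112 RPKM. That limits precision at low levels and covers counting error only.

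Tests used limma 3.58.1 with an intensity trend (R 4.3.3) on log2(RPKM + 1), for genes that reached 0.5 RPKM in 8 or more libraries, with Benjamini-Hochberg adjustment over all genes and a threshold of 0.05. A fold change on this scale understates the change of low genes. The 48 libraries of a depot were fitted together as 6 groups; the depot comparison used all 96 libraries in a single fit and treats the depots of an animal as independent. There were 24 comparisons. Tables used Python 3.11.15, pandas 2.3.3 and numpy 2.4.6. No libraries were identical (highest correlation within a tissue 0.9961). The test was also run on simulated data for the wild-type temperature comparison of each depot. The simulated noise was independent between genes, with no shift shared by genes and no RNA of other tissues. That run therefore does not bear on how these affect the calls.

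Alternatives were a pseudocount of 0.1, no filter, median-ratio scaling, quantile normalization, summed transcript rows, no intensity trend and only the groups compared; leaving out 19 libraries with RNA of other tissues was chosen after seeing the data. Named were 12 members throughout and, in each comparison, up to 5 called members each way with the largest change (smallest p for interactions). The latter needed a mean of at least 5 RPKM in any of the 12 groups, which need not be in the comparison. Slc25a48, for example, is named in iWAT comparisons though its mean in iWAT was 1.40 RPKM. The members and lists were chosen with earlier results of these data known. Promoters came from RefSeq, GRCm38.p6. The values of 1 member are not reported here; it stays in the counts.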

Additional observations from a re-analysis of the deposited data

Results flagged for a closer look

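Gaps within groups of 8 libraries were tested for 18 members in 12 groups, 216 tests in all, and 33 times a library stood apart from the nearest other by more than the 95% critical value of Dixon's test. For normally distributed values chance flags about 1 in 20 groups, whereas these tests were run on RPKM. The tests were not independent, as the same library could stand apart in several members. Replicate 7 of wild-type iWAT on high fat diet and replicate 8 of Ucp1-KO iWAT at 20 °C were such libraries. Of the 33, 15 came from libraries past a limit for skeletal muscle or hepatocyte markers; the part of that RNA in the values was not tested. Levels are in RPKM, each with the nearest other library of its group.

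Ucp2 stood apart at 35.2 (nearest 29.6) in wild-type iBAT at 20 °C, replicate 6. Ucp3 stood apart at 49.6 (nearest 28.9) in Ucp1-KO iBAT (high fat), replicate 7, at 26.2 (nearest 17.2) in wild-type iWAT (high fat), replicate 7. Slc25a3 stood apart at 259 (nearest 196) in Ucp1-KO iBAT at 30 °C, replicate 8, at 310.1 (nearest 243) in Ucp1-KO iBAT (high fat), replicate 7. Slc25a4 stood apart at 434 (nearest 288) in Ucp1-KO iBAT at 20 °C, replicate 8, at 646 (nearest 288) in Ucp1-KO iBAT at 30 °C, replicate 8, at 235 (nearest 193) in wild-type iBAT (high fat), replicate 5. Slc25a4 also stood apart at 324 (nearest 204) in wild-type iWAT at 30 °C, replicate 3, at 247 (nearest 169) in Ucp1-KO iWAT at 30 °C, replicate 1. Slc25a5 stood apart at 145 (nearest 115) in Ucp1-KO iBAT at 20 °C, replicate 8, at 91.8 (nearest 71.4) in Ucp1-KO iWAT at 20 °C, replicate 8. Slc25a25 stood apart at 31.3 (nearest 11.8) in wild-type iWAT at 20 °C, replicate 6. Slc25a33 stood apart at 5.19 (nearest 6.56) in wild-type iWAT at 30 °C, replicate 1, at 9.19 (nearest 6.67) in wild-type iWAT (high fat), replicate 7. Slc25a34 stood apart at 0.735 (nearest 0.402) in wild-type iWAT (high fat), replicate 7. Slc25a42 stood apart at 18.9 (nearest 14.0) in wild-type iWAT at 20 °C, replicate 4. Slc25a44 stood apart at 43.7 (nearest 31.6) in wild-type iWAT (high fat), replicate 7. Slc25a12 stood apart at 11.0 (nearest 5.17) in Ucp1-KO iBAT at 20 °C, replicate 8, at 27.8 (nearest 14.6) in Ucp1-KO iBAT at 30 °C, replicate 8, at 17.6 (nearest 10.6) in wild-type iWAT at 30 °C, replicate 3. Slc25a17 stood apart at 90.0 (nearest 67.8) in Ucp1-KO iWAT at 20 °C, replicate 8, at 28.0 (nearest 23.3) in wild-type iWAT at 30 °C, replicate 8. Slc25a39 stood apart at 364 (nearest 246) in Ucp1-KO iWAT at 20 °C, replicate 8, at 111 (nearest 88.9) in wild-type iWAT at 30 °C, replicate 8, at 120.3 (nearest 94.8) in wild-type iWAT (high fat), replicate 7. Slc25a47 stood apart at 2.90 (nearest 1.84) in wild-type iBAT at 30 °C, replicate 6, at 105 (nearest 25.8) in wild-type iWAT at 20 °C, replicate 6, at 3.51 (nearest 1.69) in Ucp1-KO iWAT at 20 °C, replicate 8. Slc25a47 also stood apart at 13.3 (nearest 3.27) in Ucp1-KO iWAT at 30 °C, replicate 5, at 5.03 (nearest 3.13) in wild-type iWAT (high fat), replicate 3. Slc25a48 stood apart at 1.92 (nearest 1.40) in wild-type iWAT at 20 °C, replicate 4. Slc25a51 stood apart at 66.3 (nearest 41.9) in wild-type iWAT (high fat), replicate 7.

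Interactions of genotype with temperature or diet past an adjusted p of 0.05 (limma) are given as log2 values for the members that the naming rule covers, a selection of those called where more were called (27 for temperature in iBAT, 9 for temperature in iWAT, 4 for diet in iBAT). The genotype by temperature interaction in iBAT was -1.84 for Slc25a10, 1.38 for Slc25a17, -0.77 for Slc25a24, -1.23 for Slc25a25, -0.40 for Slc25a3, -0.62 for Slc25a30, 0.81 for Slc25a33, 2.84 for Slc25a34, 1.15 for Slc25a35, -0.85 for Slc25a38, 1.20 for Slc25a42, 0.27 for Slc25a44, 0.35 for Slc25a5, 0.74 for Ucp3. The genotype by temperature interaction in iWAT was -0.94 for Slc25a10, 0.67 for Slc25a17, -0.28 for Slc25a3, 0.37 for Slc25a32, 0.94 for Slc25a34, -0.57 for Slc25a38, 0.73 for Slc25a42, 0.51 for Slc25a48. The genotype by diet interaction in iBAT was 0.90 for Slc25a16, -0.94 for Slc25a42, 1.01 for Ucp3. The genotype by diet interaction in iWAT was -0.66 for Slc25a17, -0.69 for Slc25a33, -0.89 for Slc25a34, -0.70 for Slc25a35, -0.62 for Slc25a42, -0.65 for Slc25a48.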

How the results depend on the processing

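No paired analysis was possible because the labels number the libraries through the whole series and tie no iBAT library to an iWAT library or to a litter or day. Other settings were compared for 3174 values of the named members, so the Slc25a36 depot reversal given above is outside them. A change of sign in a value that was not called was not counted. Of the 3174, 2987 stayed on their side of the threshold, 127 lost a call, 55 gained one and 5 called values changed direction. The reversals were Slc25a37 in Ucp1-KO iBAT by temperature (0.00138, quantile normalization), Slc25a5 in iBAT by genotype on high fat diet (-0.0178, median-ratio scaling), and Slc25a3 in iWAT by genotype at 30 °C (-0.0198, quantile normalization), between depots in wild-type mice at 30 °C (0.23, median-ratio scaling) and between depots in Ucp1-KO mice at 20 °C (-0.0833, quantile normalization), all log2. Of 192 counts of members under other settings, 186 lay within 1.5 times the count reported. With only the groups compared, 7 members were called for diet in Ucp1-KO iBAT and 2 in the iBAT interaction with diet. Without the 19 libraries high in RNA of other tissues, 8 were called for temperature in wild-type iWAT, 2 for diet in wild-type iWAT and 1 in the iWAT interaction with diet, the last of which had 3 with no filter, where more genes are tested. For the other changes the cause was not tested. Low levels such as Slc25a34 in iWAT are limited by depth.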

Other observations

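Spread within a group was wide for some members. Ucp3 in iBAT of wild-type mice fed high fat diet had 18.8, 21.8, 22.6, 30.7 and 31.2 RPKM in 5 libraries and 67.4, 74.0 and 75.4 RPKM in the other 3. Slc25a34 in wild-type iBAT at 20 °C ran from 2.09 to 15.1 RPKM. The lowest Slc25a10 level in Ucp1-KO iBAT on high fat diet was 7.20 RPKM and the next 23.1 RPKM.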
